A study of Mus musculus with 6 samples.

Results

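The genes described here are 10 genes of heme and iron recycling, namely Hmox1, Blvrb, Blvra, Fth1, Ftl1, Slc40a1, Tfrc, Slc11a1, Cd163 and Spic. They were taken by gene name from 53546 gene names in the count files. All 10 were present, and all 10 were among the 20541 genes that passed a filter on low counts. The libraries were made from the non-parenchymal cells of male mouse livers, a fraction in which macrophages, endothelial cells, stellate cells and lymphocytes are found. The SRA-/- group (3 libraries) came from mice that lack scavenger receptor A, a macrophage receptor encoded by Msr1, and the wild type group (3 libraries) from mice with the receptor. Both groups had received acetaminophen, a drug that injures hepatocytes at high dose, at 400 mg/kg into the peritoneum 6 h before the cells were taken. The labels name no age, strain or disrupted exon, and do not say whether the mice were littermates. Mice without acetaminophen were not analysed here, so no value below is a response to the drug.

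Macrophages of the liver and spleen clear old and damaged red cells and take the heme apart. Heme oxygenase 1 (Hmox1) opens the heme ring to release iron, carbon monoxide and biliverdin, and biliverdin reductases turn biliverdin into bilirubin. The iron is stored in ferritin, a shell of heavy (Fth1) and light (Ftl1) chains, or leaves the cell through ferroportin (Slc40a1), the known cellular iron exporter of mammals. Cells take iron up from transferrin through the transferrin receptor (Tfrc), and Slc11a1 moves metal ions out of the phagosome. Cd163 binds hemoglobin that is bound to haptoglobin, and Spic encodes a transcription factor that red pulp macrophages of the mouse spleen need and that heme can induce in macrophages.

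Of the 10 genes, 4 share a short RNA hairpin, the iron responsive element, through which iron regulatory proteins act on a transcript. In the 5' untranslated region the bound proteins block translation, and in the 3' untranslated region of Tfrc they protect the transcript from decay. The hairpins are shown because they separate the genes whose RNA level can follow cell iron through this route (Tfrc) from those whose protein can change at a constant RNA level (Fth1, Ftl1, Slc40a1), which counts of RNA cannot show. GENCODE vM21 transcripts (GRCm38) were searched on the transcript strand for the loop CAGTGN between 5 paired bases on each side (G with T counted as a pair) and a C before them. Capitals mark the loop, and sequences are written as DNA, 5' to 3'.
Fth1, 5' untranslated region: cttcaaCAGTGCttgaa
Ftl1, 5' untranslated region: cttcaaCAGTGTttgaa
Slc40a1, 5' untranslated region: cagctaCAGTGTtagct
Tfrc, 3' untranslated region, match 1: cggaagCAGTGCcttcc
Tfrc, 3' untranslated region, match 2: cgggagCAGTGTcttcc
Tfrc, 3' untranslated region, match 3: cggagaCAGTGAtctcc
Tfrc, 3' untranslated region, match 4: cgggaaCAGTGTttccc
The matches in Tfrc began at bases 3321, 3700, 3765 and 3812 of its transcript, and those in Ftl1 and Slc40a1 at bases 84 and 96 of theirs. In Fth1 the match was in 4 transcripts and began at base 16 in the one where it lay closest to the start. The same search matched 294 of 21877 protein-coding genes (1.34%), so a match describes the letters and is not by itself a working element. No match with these settings was found in the other 6 genes.

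The libraries held 23757203 to 44003902 gene counts, and 6 counts in a library corresponded to 0.136 to 0.253 CPM (TMM-scaled CPM, the share of a library's counts on a common scale). The 10 genes together took 0.259% to 0.276% of the counts in SRA-/- libraries and 0.187% to 0.324% in wild type libraries. Markers of Kupffer cells, the resident macrophages of the liver, were found in every library, with Clec4f between 172 and 358 CPM in SRA-/- and between 169 and 369 CPM in wild type libraries. The 10 Kupffer cell markers summed to 961 to 1781 CPM in SRA-/- libraries and to 670 to 1645 CPM in wild type libraries, and wild type replicate 1 was the lowest of all. Hepatocyte RNA was present too, at 5.21% to 9.50% of the counts of SRA-/- libraries and 2.98% to 7.82% of those of wild type libraries for 10 marker genes. Msr1 itself had 40.2, 33.6 and 42.0 CPM in SRA-/- and 38.6, 73.5 and 114 CPM in wild type replicates 1, 2 and 3, so wild type replicate 1 lay within the SRA-/- range. Its log2 fold change was -0.96 ± 0.33 (SE; edgeR adjusted p = 0.9999). Counts over the whole gene can include transcript from outside the disrupted exon and do not check the genotype. In a mixed fraction such as this, fewer cells of a type and less RNA per cell cannot be told apart.

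None of the 10 genes was called different between the genotypes by edgeR's quasi-likelihood test with Benjamini-Hochberg adjustment over all tested genes. The test called 10 of 20541 genes (0.0487%), 7 of them higher (0.0341%) and 3 lower (0.0146%) in SRA-/- libraries. DESeq2 (0.331% of genes called) and limma-voom with quality weights (0.365%) called 0 of the 10 genes as well. At an unadjusted p under 0.05, edgeR gave 1 of the 10 genes, Spic, against 3.22% of all genes. The median log2 fold change of the 10 genes was 0.10, against -0.01 over all tested genes, with 6 genes above 0 and 4 below it. Spic was also the 1 gene of the 10 whose groups did not overlap, which held for 7.3% of all genes and, with SRA-/- higher, for 3.97%.

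**Figure D1:**
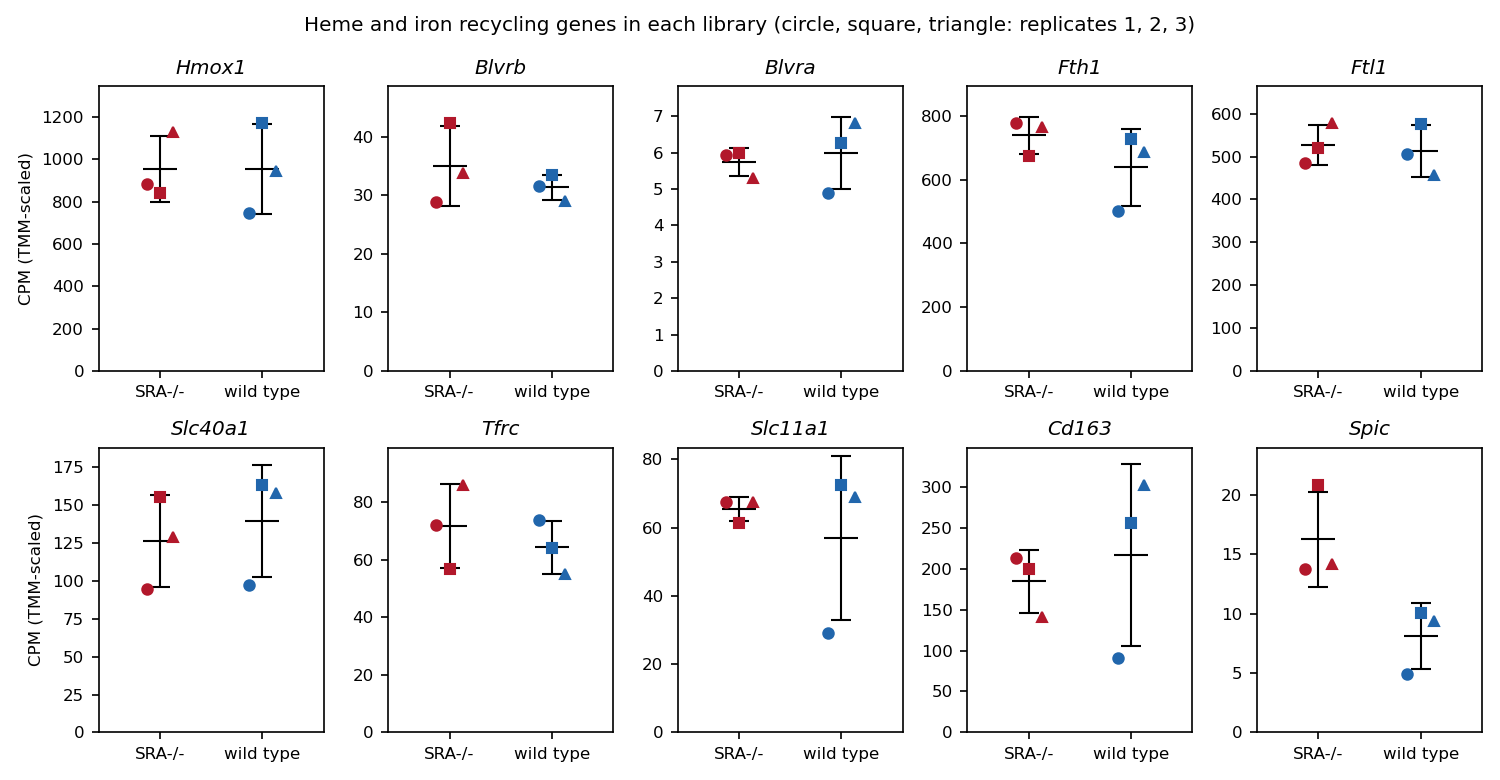
Level of each of the 10 genes in each library, in TMM-scaled CPM (vertical axes from 0), with the mean and SD of the 3 libraries of a group as black bars. The groups overlap in 9 genes, while the 3 SRA-/- values of Spic (13.7 to 20.9 CPM) lie above the 3 wild type values (4.95 to 10.1 CPM).

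Among the genes of heme breakdown, Hmox1 (chromosome 8, 75820249 to 75827217, plus strand, mm39) was abundant in every library and its mean was nearly equal in both groups. It had 884, 843 and 1131 CPM in SRA-/- replicates 1, 2 and 3, against 747, 1172 and 948 CPM in wild type replicates 1, 2 and 3. The SRA-/- values lay inside the range of the wild type values, with wild type replicate 1 lowest and wild type replicate 2 highest. The means were 953 ± 156 CPM in SRA-/- and 956 ± 212 CPM in wild type libraries (SD, n = 3 each). Its log2 fold change was -0.0041 ± 0.27 (SE), the 95% interval running from -0.60 to 0.60, and the edgeR adjusted p was 0.9999. That interval leaves room for differences in either direction. Hmox1 lies on the chromosome of Msr1, 35.7 Mb from it.

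Blvrb, the NADPH-dependent biliverdin and flavin reductase (chromosome 7, 27147403 to 27165569), had 28.7, 42.3 and 33.7 CPM in SRA-/- replicates 1, 2 and 3 and 31.5, 33.4 and 29.05 CPM in wild type replicates 1, 2 and 3. SRA-/- replicate 2 was the highest and SRA-/- replicate 1 the lowest of the 6 libraries, so the wild type values lay within the SRA-/- range. Blvrb had a log2 fold change of 0.16, with a 95% interval of -0.26 to 0.57. Blvra, the main biliverdin reductase of adult tissues (chromosome 2, 126912585 to 126939004), was among the lowest of the 10 genes, with 117 to 273 counts a library. It had 5.94, 5.98 and 5.31 CPM in SRA-/- and 4.88, 6.26 and 6.81 CPM in wild type replicates 1, 2 and 3. All 3 SRA-/- values fell between the lowest and the highest wild type value, and the log2 fold change was -0.06, with a 95% interval of -0.56 to 0.45.

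Both ferritin chains were highly expressed and overlapped between the groups. Fth1 (chromosome 19, 9957962 to 9962462) had 777, 673 and 766 CPM in SRA-/- replicates 1, 2 and 3, against 502, 726 and 686 CPM in wild type replicates 1, 2 and 3. Of the SRA-/- libraries 2 were above every wild type library, and wild type replicate 1 stood lowest. Fth1 averaged 739 ± 57.4 CPM in SRA-/- and 638 ± 119 CPM in wild type libraries (SD, n = 3 each), and its log2 fold change was 0.21 with a 95% interval of -0.33 to 0.75. Without wild type replicate 1 it was 0.07.

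Ftl1 (chromosome 7, 45107368 to 45109308, minus strand) had 484, 520 and 578 CPM in SRA-/- replicates 1, 2 and 3 and 506, 577 and 457 CPM in wild type replicates 1, 2 and 3, so the groups covered almost the same range. Ftl1 had a log2 fold change of 0.04, with a 95% interval of -0.44 to 0.52. The value of Ftl1 is uncertain in size, since the copy Ftl1-ps1 was 99.6% identical over 910 aligned bases, with an identical run of 524 bases, and reads placed at several loci were not counted. The annotation also overlaps 26.5% of the exonic bases of Ftl1 with Gm10252 on the other strand, where reads counted without strand are left out as ambiguous. Ftl1-ps1 was listed at 260 to 265 CPM in SRA-/- and at 212 to 342 CPM in wild type libraries. Ftl1 and Ftl1-ps1 summed to 749, 785 and 839 CPM in SRA-/- and to 718, 918 and 789 CPM in wild type replicates 1, 2 and 3. The sum averaged 791 ± 45.1 CPM in SRA-/- and 809 ± 101 CPM in wild type libraries (SD, n = 3 each), so the order of the group means was the opposite of that of Ftl1 alone, within the spread between libraries.

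**Figure D2:**
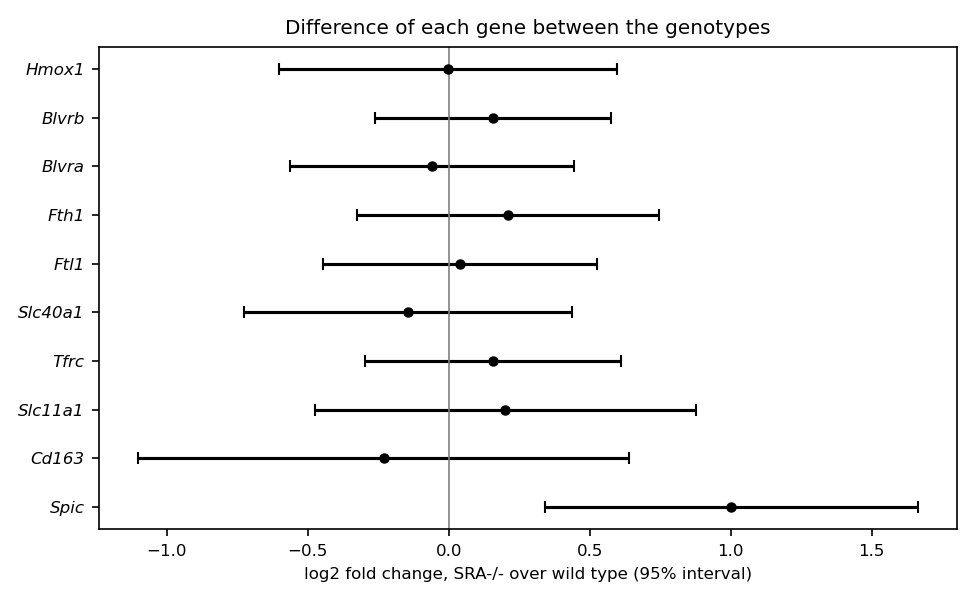
Log2 fold change of each gene, SRA-/- over wild type (horizontal axis), with its 95% interval from edgeR's quasi-likelihood fit as bars. The interval of Spic runs from 0.34 to 1.66, and those of the other 9 genes include 0, from the narrow interval of Blvrb to the wide one of Cd163.

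Of the iron transport genes, the exporter Slc40a1 (chromosome 1, 45947228 to 45965683) had 94.7, 155 and 129 CPM in SRA-/- replicates 1, 2 and 3, against 97.0, 163 and 158 CPM in wild type replicates 1, 2 and 3. Each group held 1 library near 95 CPM, replicate 1 in both, beside higher ones. Slc40a1 had a log2 fold change of -0.15 ± 0.26 (SE), and its 95% interval ran from -0.73 to 0.44. Limma-voom with quality weights gave -0.43 (adjusted p = 0.423, unadjusted p = 0.0469), and edgeR without wild type replicate 1 and SRA-/- replicate 2 gave -0.52 (adjusted p = 0.554, unadjusted p = 0.0282).

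Tfrc (chromosome 16, 32427738 to 32451612) had 72.0, 56.9 and 86.1 CPM in SRA-/- replicates 1, 2 and 3 and 73.6, 64.0 and 55.2 CPM in wild type replicates 1, 2 and 3. SRA-/- replicate 3 was highest and wild type replicate 3 lowest, which were also the libraries with the highest and the lowest share of hepatocyte markers. Tfrc had a log2 fold change of 0.16, with a 95% interval of -0.30 to 0.61. With the mean of the hepatocyte markers as a covariate it was 0.05. The part of hepatocytes in the Tfrc value was not tested.

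Slc11a1, expressed by macrophages and neutrophils (chromosome 1, 74414354 to 74425221), had 67.3, 61.3 and 67.6 CPM in SRA-/- replicates 1, 2 and 3. It had 29.2, 72.6 and 69.0 CPM in wild type replicates 1, 2 and 3. Wild type replicate 1 alone stood apart, at less than any other library, and the other 2 wild type values were above all SRA-/- values. The log2 fold change was 0.20, with a 95% interval of -0.48 to 0.88, and without wild type replicate 1 it was -0.11. Of 8 neutrophil markers, 7 were higher in SRA-/- libraries at an unadjusted p under 0.05 by edgeR, against 2.32% of all genes. None of the 8 passed edgeR's adjusted test, while DESeq2 called 5 (0.331% of all genes) and limma-voom 1, S100a8 (0.365% of all genes). Those 8 genes summed to 578 to 1305 CPM in SRA-/- and 310 to 671 CPM in wild type libraries, most of it from Lrg1, which hepatocytes also make. Their part in the Slc11a1 value was not tested.

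Cd163 (chromosome 6, 124281615 to 124307486) varied most of the 10 genes between wild type libraries on the log2 scale. It had 213, 200 and 141 CPM in SRA-/- replicates 1, 2 and 3, against 91.1, 256 and 303 CPM in wild type replicates 1, 2 and 3. The SRA-/- libraries were all below wild type replicates 2 and 3 and all above wild type replicate 1. Cd163 averaged 185 ± 38.3 CPM in SRA-/- and 217 ± 111 CPM in wild type libraries (SD, n = 3 each). In edgeR its log2 fold change was -0.23 ± 0.39 (SE), the 95% interval ran from -1.10 to 0.64, and the adjusted p was 0.9999. When wild type replicate 1 was left out it became -0.59 (edgeR adjusted p = 0.664, unadjusted p = 0.0262), and when wild type replicate 3 was left out it became 0.09. Wild type replicate 1 was also the lowest in the Kupffer cell markers. The part of Kupffer cells in the Cd163 value was not tested.

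Spic (chromosome 10, 88510634 to 88520877, minus strand) had the largest difference of the 10 genes, and it did not pass the adjusted test. It had 631, 625 and 313 counts in SRA-/- replicates 1, 2 and 3, which is 13.7, 20.9 and 14.2 CPM. In wild type replicates 1, 2 and 3 it had 144, 265 and 316 counts, which is 4.95, 10.1 and 9.36 CPM. Every SRA-/- library was above every wild type library, with SRA-/- replicate 2 highest and wild type replicate 1 lowest. Spic averaged 16.3 ± 3.99 CPM in SRA-/- and 8.12 ± 2.77 CPM in wild type libraries (SD, n = 3 each). By edgeR the log2 fold change was 1.002 ± 0.29 (SE), the 95% interval ran from 0.34 to 1.66, and p was 0.00735 unadjusted and 0.959 adjusted. DESeq2 gave an adjusted p of 0.225 and limma-voom with quality weights one of 0.248. Its unadjusted p was between 0.000726 and 0.0358 over the 17 alternatives, while its adjusted p was between 0.225 and 1. The log2 fold change was 0.75 without wild type replicate 1, 0.78 without SRA-/- replicate 2 and 0.53 without both.

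Spic was higher in SRA-/- libraries also when set against the Kupffer cell markers of the same library, a ratio that was chosen after the values were seen. It had 12.7, 11.7 and 14.8 CPM per 1000 CPM of the 10 markers in SRA-/- replicates 1, 2 and 3 and 7.38, 6.12 and 6.42 in wild type replicates 1, 2 and 3. The groups did not overlap, and wild type replicate 1, lowest in Spic, was here the highest wild type library. A two-sided exact permutation test of this ratio gave p = 0.1, the smallest possible with 3 against 3 libraries. With the mean of the Kupffer cell markers as a covariate, the log2 fold change of Spic was 0.95 (edgeR adjusted p = 0.495, unadjusted p = 0.000868). The other macrophage genes taken over the same markers overlapped between the groups. Cd163 had 152 ± 42.2 CPM per 1000 CPM in SRA-/- and 167 ± 37.2 in wild type libraries. Slc40a1 had 103 ± 26.8 in SRA-/- and 118 ± 23.98 in wild type libraries, and Slc11a1 had 55.6 ± 18.8 in SRA-/- and 45.0 ± 2.04 in wild type libraries (SD, n = 3 each). Spic is known from B cells of the mouse too, and 5 B cell markers summed to 16.7 to 24.7 CPM in SRA-/- and to 8.20 to 10.4 CPM in wild type libraries. The sum was highest in SRA-/- replicate 2, as was Spic. All 5 had log2 fold changes above 0, and 3 were higher at an unadjusted p under 0.05 by edgeR, against 2.32% of all genes. EdgeR's adjusted test called 0 of the 5. DESeq2, which called 0.331% of all genes, called Cd79a (adjusted p = 0.0498), and limma-voom, which called 0.365%, called Pax5. Their part in the Spic value was not tested.

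**Figure D3:**
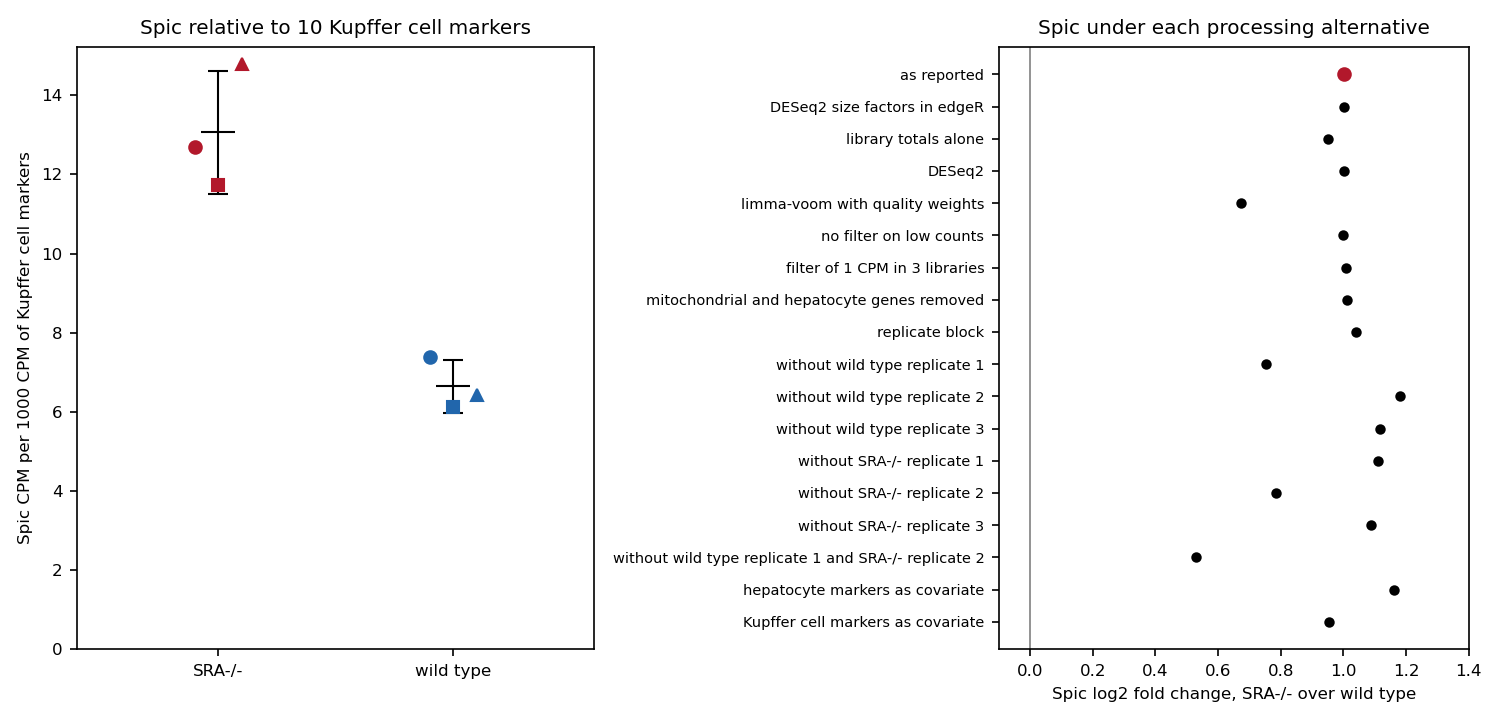
Left, Spic CPM per 1000 CPM of 10 Kupffer cell markers in each library (vertical axis from 0), with the mean and SD of each group; the SRA-/- values (11.7 to 14.8) lie above the wild type values (6.12 to 7.38). Right, log2 fold change of Spic, SRA-/- over wild type, as reported and under 17 alternatives, all of which lie between 0.53 and 1.18.

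Per base of annotated exon, the 10 genes spanned a wide range of levels. In TMM-scaled CPM per kilobase, averaged over the 6 libraries, Hmox1 stood at 545, Ftl1 at 388 and Fth1 at 198. Hmox1 was above Ftl1, Ftl1 above Fth1 and Fth1 above Cd163 (36.7) in 6 of 6 libraries. Slc11a1 (16.5), Slc40a1 (14.8), Blvrb (11.9) and Tfrc (10.99) followed, and neighbours in this stretch did not keep their order in every library, Slc11a1 being above Slc40a1 in 4 of 6 and Blvrb above Tfrc in 3 of 6. Spic (3.18) and Blvra (2.40) were lowest. Spic was above Blvra in 3 of 3 SRA-/- libraries and in 1 of 3 wild type libraries. The length is the union of all annotated exons, 9000 bases for Slc40a1 and 3469 for Fth1, so genes with long rare exons appear lower than their main transcript would. Reads shared by Ftl1 and Ftl1-ps1, and those ambiguous with Gm10252, were not counted for Ftl1. Its place below Hmox1 is therefore uncertain.

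Ratios within a library, which do not depend on the scaling between libraries, overlapped between the genotypes. The level per length of Tfrc over the summed ferritin chains was 0.0190 ± 0.0029 in SRA-/- and 0.0185 ± 0.0037 in wild type libraries (SD, n = 3 each). Slc40a1 over Tfrc, export against uptake, was 0.904, 1.87 and 1.03 in SRA-/- replicates 1, 2 and 3 and 0.905, 1.75 and 1.97 in wild type replicates 1, 2 and 3. Replicates 1 of both groups were the lowest, with almost the same value. Hmox1 over Blvrb averaged 44.6 ± 11.4 in SRA-/- and 48.4 ± 9.54 in wild type libraries, and Fth1 over Ftl1 averaged 0.544 ± 0.066 in SRA-/- and 0.483 ± 0.098 in wild type libraries (SD, n = 3 each). The ratios that include Ftl1 carry its uncertainty in size.

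**Figure D4:**
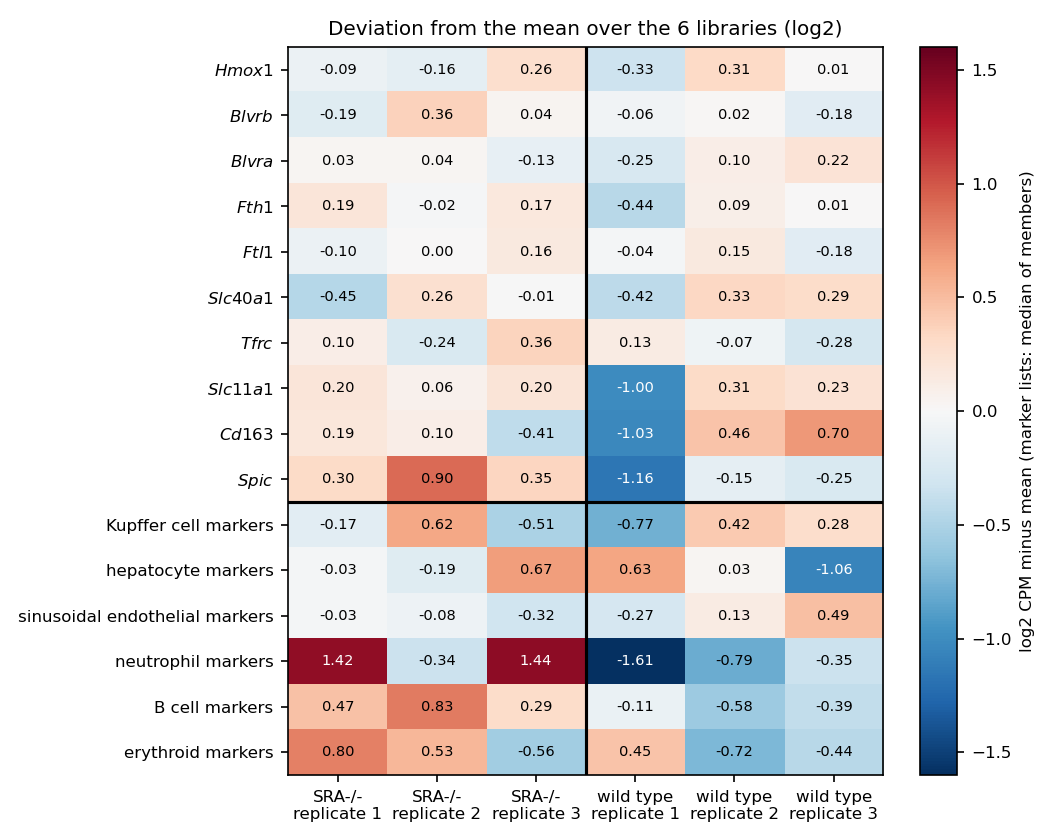
Deviation of log2 CPM from its mean over the 6 libraries (colour and printed value) for the 10 genes, above the line, and the median member of 6 marker lists, below it; SRA-/- libraries are on the left. Slc11a1, Cd163 and Spic are lowest in wild type replicate 1, at -1.0035, -1.03 and -1.16, where the Kupffer cell markers stand at -0.77.

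Among themselves, the genes differed in how much they varied from library to library. Slc11a1, Cd163 and Spic deviated by -1.0035, -1.03 and -1.16 log2 units from their own means in wild type replicate 1, where the median Kupffer cell marker deviated by -0.77. Slc40a1 deviated by -0.42 there and by -0.45 in SRA-/- replicate 1, where the median Kupffer cell marker deviated by -0.17. The widest deviation in any library was -0.18 for Ftl1, -0.25 for Blvra, -0.33 for Hmox1 and 0.36 for both Tfrc and Blvrb. Tfrc was the 1 gene of the 10 with a positive deviation in wild type replicate 1, at 0.13.

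Genes whose values over the 6 libraries were most like those of 4 of the genes were found among 13179 candidates by the root-mean-square difference of log2 CPM centred on its mean. For Hmox1 these were Slc25a53, of the mitochondrial carrier family, Myh14, a non-muscle myosin heavy chain, and Phb, which encodes prohibitin, with differences of 0.067 to 0.085 log2 units. For Slc40a1 they were Prrg3, Ddi1 and Cd200r1, an inhibitory receptor of myeloid cells (0.091 to 0.11). For Cd163 they were Car13, a carbonic anhydrase, Lhfp and the transcription factor gene Jdp2 (0.10 to 0.11). For Slc11a1 they were Mcm2, a subunit of the replicative helicase, Sirpa, the macrophage receptor for Cd47, and Dok3, a signalling adaptor (0.085 to 0.092). Their own root-mean-square deviations were 0.23 for Hmox1, 0.33 for Slc40a1, 0.57 for Cd163 and 0.45 for Slc11a1, and these likenesses over 6 libraries are descriptions.

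Around the 10 genes, 6 further lists of heme and iron genes held 61 names, of which 58 were tested. Of these 0 passed edgeR's adjusted test, and DESeq2 and limma-voom called 0 as well, against the 0.0487% of all genes that edgeR called. At an unadjusted p under 0.05 edgeR gave 2 higher and 1 lower, against 2.32% and 0.896% of all genes. The groups did not overlap in 2 genes with SRA-/- higher and in 2 with SRA-/- lower, against 3.97% and 3.33% of all genes. The median log2 fold change of the 58 was 0.07.

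Of 15 tested genes of iron regulation and transport, 10 were above 0 and 5 below, with a median of 0.13 and none with an unadjusted p under 0.05. Slc39a8, a metal importer, averaged 29.2 ± 1.51 CPM in SRA-/- and 35.5 ± 4.34 CPM in wild type libraries, with every SRA-/- library below every wild type library by a narrow margin (30.578 against 30.582 CPM at the nearest). Groups that do not overlap with SRA-/- lower were found for 3.33% of all genes. Heph, a ferroxidase, had a log2 fold change of -0.45 ± 0.28 and Fbxl5, which senses iron and marks an iron regulatory protein for decay, one of 0.40 ± 0.27 (SE). Trf, which encodes transferrin and had the most counts, averaged 6819 ± 1180 CPM in SRA-/- and 6231 ± 2447 CPM in wild type libraries (SD, n = 3 each). It is a product of hepatocytes and was lowest in wild type replicate 3, the library with the lowest share of hepatocyte markers. The part of hepatocytes in the Trf value was not tested.

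In heme transport and scavenging, 9 of 12 genes were above 0, with a median of 0.08 and none with an unadjusted p under 0.05. Slc48a1, which carries heme out of the phagolysosome, had 0.25 ± 0.19, and the heme exporter gene Flvcr1 had -0.17 ± 0.22. Hpx, the plasma heme scavenger hemopexin, had 0.30 ± 0.40 and Lrp1, its receptor, 0.02 ± 0.30 (log2 fold change ± SE). Heme synthesis had 5 of 8 genes above 0 and a median of 0.08. Its Cpox, coproporphyrinogen oxidase, averaged 88.0 ± 15.7 CPM in SRA-/- and 60.5 ± 15.0 CPM in wild type libraries (SD, n = 3 each). The groups did not overlap, which held with SRA-/- higher for 3.97% of all genes. Its log2 fold change was 0.54 (edgeR adjusted p = 0.9999, unadjusted p = 0.0405). Ppox, the next enzyme of the path, had -0.18 ± 0.17, and Alas1, the first, 0.35 ± 0.37 (SE). For Ppox every SRA-/- library was below every wild type library, which held for 3.33% of all genes.

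Hamp encodes hepcidin, the liver hormone that binds ferroportin and has it degraded. It had 101, 92.1 and 149 CPM in SRA-/- replicates 1, 2 and 3, against 88.5, 77.1 and 47.1 CPM in wild type replicates 1, 2 and 3. Every SRA-/- library was above every wild type library, which held for 3.97% of all genes. The log2 fold change of Hamp was 0.69 ± 0.27 (SE; edgeR adjusted p = 0.9999, unadjusted p = 0.0317). Hepatocytes make hepcidin, and the library highest in Hamp, SRA-/- replicate 3, and the lowest, wild type replicate 3, were also the highest and the lowest in hepatocyte markers. These markers overlapped between the groups, at 51816 to 102430 CPM summed over 10 genes in SRA-/- and 27536 to 87337 CPM in wild type libraries. The order did not hold throughout. Wild type replicate 1, at 87337 CPM of these markers, had less Hamp than SRA-/- replicates 1 and 2, at 55309 and 51816 CPM. The part of hepatocytes in the Hamp value was not tested. The other genes of the hepcidin list had log2 fold changes from -0.27 to 0.22, among them Hjv, a co-receptor that raises hepcidin, at -0.27 ± 0.30, Smad6 at -0.27 ± 0.22 and Tfr2, a sensor of transferrin, at 0.22 ± 0.29 (SE).

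Of the iron-withholding proteins, Lcn2, which binds bacterial iron carriers, had 0.58 ± 0.41 and its receptor gene Slc22a17 had -0.30 ± 0.32, while Ltf did not pass the filter on low counts. In the list of red cell engulfment and lysosome, 5 of 9 genes were above 0. Cd36, a scavenger receptor, averaged 85.6 ± 6.85 CPM in SRA-/- and 125 ± 37.9 CPM in wild type libraries (SD, n = 3 each), which is -0.54 on the log2 scale (edgeR adjusted p = 0.9999, unadjusted p = 0.0430). The groups overlapped, wild type replicate 1 being at 88.1 CPM. The lysosomal protease gene Ctsd had 0.23 ± 0.18, and the endothelial scavenger receptor genes Stab1 and Stab2 had -0.32 ± 0.28 and -0.20 ± 0.27 (SE).

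Red cell RNA itself was present in every library. Of 7 tested erythroid markers all were above 0, with a median log2 fold change of 0.54 and 0 past the adjusted test. At an unadjusted p under 0.05 edgeR gave 1 higher, Slc4a1 (log2 fold change 0.79), against 2.32% of all genes. The groups did not overlap in Slc4a1, which held with SRA-/- higher for 3.97% of all genes. The list of 8 summed to 614 to 1624 CPM in SRA-/- and to 505 to 1293 CPM in wild type libraries, so the sums overlapped. Hbb-bs, an adult beta globin, took most of this, with 938, 808 and 354 CPM in SRA-/- replicates 1, 2 and 3 and 734, 292 and 422 CPM in wild type replicates 1, 2 and 3.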

How the data were processed

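Per the labels' protocols, ribosomal RNA was removed from total RNA of the non-parenchymal fraction and 6 libraries were made with a KAPA kit. FastQC, STAR, featureCounts and build mm39 are named in the submitters' processing notes. Per the file headers, featureCounts 2.0.2 assigned reads to GENCODE vM26 exons, summed per gene name and without strand. The deposited values are raw counts. Pairs were not requested in the header's command line, so each mate counts: 68.5% to 71.9% of counts from 1 to 4 were even. Floors are therefore 6 counts, and cover counting error only.

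Groups and replicate numbers come from the titles, which call the replicates biological. Nothing says how the mice were housed or paired. The p-values set the difference between the groups against the variation between these libraries, estimated with information shared over genes. In R 4.3.3, edgeR 4.0.16 (filterByExpr, TMM, glmQLFit with robust, glmQLFTest on group) tested 20541 genes, with Benjamini-Hochberg adjustment and a threshold of 0.05. Standard errors are the absolute log2 fold change over the root of F, and intervals use the degrees of freedom of the test. With 3 against 3 libraries an exact permutation test cannot give a p below 0.1. The procedure was tested on simulated data. Log2 CPM used a prior count of 2. Alternatives used DESeq2 1.42.0, limma 3.58.1 (voom with quality weights), other scalings and filters, removal of mitochondrial and hepatocyte genes, a replicate block, libraries left out, and marker means as covariates.

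The 10 genes and all lists were chosen with earlier results of these data known, as was the pair of libraries left out together. Named were the 10 genes and Msr1, up to 3 genes by p and the one with the most counts per further heme and iron list, and the 3 genes most like each of Hmox1, Slc40a1, Cd163 and Slc11a1 with a mean of at least 1 CPM that are not predicted genes or clones. The same choice within marker lists is given as sums and counts, and the marker genes and ferritin copies given by name were chosen after their values were seen. Sequences were compared with Biopython 1.88, and figures drawn with matplotlib 3.10.9.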

Additional observations from a re-analysis of the deposited data

How the results depend on the processing

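None of the 10 genes and none of the further list genes passed the adjusted test under any of 17 alternatives, and the median of the 10 genes ran from -0.07 to 0.16. The count of genes called over all genes was 10 as reported, 68 with DESeq2, 75 with limma-voom and 32 with no filter on low counts. It was 6 with the Kupffer cell markers as covariate and 101 with SRA-/- replicate 2 and wild type replicate 1 both left out. With 1 library left out it ran from 3 without SRA-/- replicate 3 to 40 without SRA-/- replicate 2, and was 4 without wild type replicate 2 or SRA-/- replicate 1. With the replicate block it was 5. Same-numbered libraries correlated in their deviations at -0.29, -0.14 and -0.13, and no library correlated best with its own number. These few correlations show no pairing by number, but they cannot tell whether mice shared a litter or a day.

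Fth1, Tfrc and Spic kept their sign under all 17 alternatives, though Tfrc was 0.0034 without SRA-/- replicate 3. Hmox1 turned to 8.75e-05 without mitochondrial and hepatocyte genes and to 0.0089 with the replicate block, and it was -0.23 with limma-voom. With limma-voom, Blvrb turned to -0.0019, Ftl1 to -0.10 and Slc11a1 to -0.035. Slc11a1 turned to -0.063 without both libraries. With the hepatocyte covariate, Blvra turned to 0.032, Ftl1 to -0.0096 and Cd163 to 0.13. With 1 library left out, Hmox1 ran from -0.15 to 0.17, Blvrb from -0.0052 to 0.28, Blvra from -0.18 to 0.045, Ftl1 from -0.037 to 0.13, Slc40a1 from -0.34 to 0.023, Slc11a1 from -0.11 to 0.41, Cd163 from -0.59 to 0.087, Fth1 from 0.07 to 0.31, Tfrc from 0.0034 to 0.30 and Spic from 0.75 to 1.18. Chosen after seeing the data, the same was done for ratios: the log2 difference of Tfrc over ferritin ran from -0.044 to 0.20 and that of Hmox1 over Blvrb from -0.30 to 0.10. Slc40a1 over Tfrc was -0.63 when wild type replicate 1 was left out and -0.07 when wild type replicate 3 was. Fth1 over Ftl1 was 0.03 and 0.33 with the same libraries left out, and its groups did not overlap in the last case. The cause of these turns was not tested. All of these gene values lie within the 95% intervals of the genes. The lowest count of the 10 genes in a library was 117.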

Other observations

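The remaining marker lists give the cell content beside which the heme and iron genes were read. Of 7 sinusoidal endothelial markers all were below 0, with a median log2 fold change of -0.23 and 0 past edgeR's adjusted test. At an unadjusted p under 0.05 edgeR gave 1 lower, Lyve1, against 0.896% of all genes. DESeq2's adjusted test called 0 of the 7. Limma-voom's, which called 0.365% of all genes, called Lyve1 (log2 fold change -1.09 by edgeR, adjusted p 0.0485 by limma-voom). The 7 genes summed to 1285 to 1591 CPM in SRA-/- and 1348 to 2389 CPM in wild type libraries. Stellate cell markers had a median of -0.02 over 7 genes, and cholangiocyte markers one of -0.11 over 4. Of 7 monocyte markers 4 were above 0, with a median of 0.03 and a range of -0.55 to 1.12. All 6 T and NK cell markers were above 0, with a median of 0.54. All 7 pancreatic acinar markers had lower values in every SRA-/- library than in any wild type library, which held for 3.33% of all genes, and they summed to 1.27 to 226 CPM in SRA-/- and 316 to 607 CPM in wild type libraries, the 226 CPM being SRA-/- replicate 2. None of these lists had a member past edgeR's adjusted test. Of the loci related to ferritin, 5 of 8 were tested, all below 0 with a median of -0.17, and Ftl2-ps was lowest at -1.01 with less than 1 CPM in every library.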
